A study of Mus musculus with 37 samples.

Results

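Hippocampal gene expression was compared between the CSS15F2 mice with the highest and the lowest level of *Lrrc24*. The 37 arrays of the study were quantile normalized and ranked by the *Lrrc24* probe, and the first 12 (high-*Lrrc24* mice) were set against the last 12 (low-*Lrrc24* mice), so that 24 of 37 mice entered the comparison and 13 mice in the middle of the ranking did not. CSS15F2 mice come from an intercross between C57BL/6J, the host strain, and a strain of the same background that carries chromosome 15 of the donor strain A/J, so chromosome 15 is the region in which the mice differ by descent. All mice were females aged 3 to 4 months, tested in behavioral assays before dissection. Hippocampal punches of each mouse were joined before RNA isolation. The study gives the brain samples as left hemisphere and the punches as bilateral. RNA was hybridized, without pooling between mice, to Illumina MouseRef-8 V1.1 BeadChips, each mouse on 1 array. The high, middle and low mice are ends and centre of 1 measured distribution. They are not groups of genotype or treatment, and no marker genotype or behavioral score entered the comparison.

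*Lrrc24* encodes a membrane protein with leucine-rich repeats and an immunoglobulin domain, related to neuronal receptors that take part in axon guidance and synapse formation. Its gene lies on chromosome 15, and the study mapped its expression to a locus on the same chromosome (an expression QTL, eQTL) with a probe that holds no SNP between the parental strains. In the study, the peak of this eQTL lay at a lower position on the chromosome than the gene, not at the gene itself. Places before and after *Lrrc24* are counted below from the gene, not from that peak. When such a locus segregates in an intercross, mice that carry its high allele also tend to share alleles of genes near the locus. The reason is that stretches of a chromosome are inherited together. A ranking on *Lrrc24* can for that reason also rank other genes of chromosome 15. A value that 2 probes of the same array share for technical reasons enters such a ranking too, since *Lrrc24* and all other genes were read from the same arrays, and its part in the results was not tested.

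*Lrrc24* was detected on all 37 arrays, and its values chose the groups, so they are given as a description without a test. On the log2 scale of the normalized values, the high mice had a lowest value of 9.80, a median of 9.91 and a highest value of 10.08. The low mice had a lowest value of 8.79, a median of 9.04 and a highest value of 9.24. The middle mice ran from 9.24 to 9.76 with a median of 9.54. The ranking had no gap at either border. The last high mouse had a normalized signal of 877.8 and the first middle mouse one of 851.7, and the last middle mouse had 589.8 against 588.5 for the first low mouse.

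**Figure D1:**
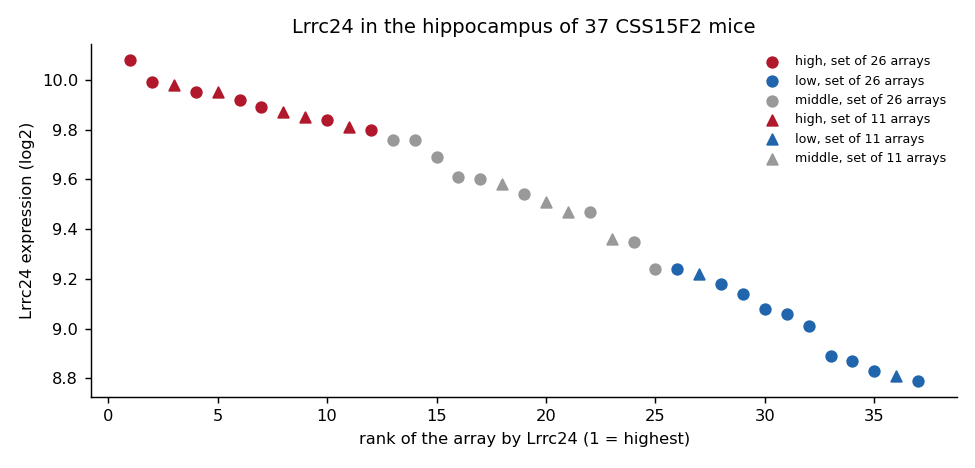
*Lrrc24* expression (log2, y axis) of the 37 mice in order of rank (x axis), 1 point per array, with circles for the set of 26 arrays and triangles for the set of 11 arrays that the numbering of the BeadChips forms. The values fall from 10.08 to 8.79 without a break between the high (red), middle (grey) and low (blue) mice.

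The ranking depended on the normalization between arrays. With the authors' normalized values, 22 of the 24 mice stayed in their group, 0 changed to the opposite group, and the 2 scales correlated with *r* = 0.98 over the 37 mice. Without quantile normalization, where each array was only centred on its median, 11 of the 24 stayed in their group, 5 changed to the opposite group and *r* was 0.42. The number of detected probes per array (detection score above 0.99) was 8332 ± 1383 (SD, n = 12) in high and 8832 ± 1527 (SD, n = 12) in low mice (two-sided permutation test, p = 0.41, adjusted over 3 measures 0.41). The median signal was 10.45 ± 3.197 (SD) against 12.58 ± 4.54 (SD; permutation p = 0.2, adjusted 0.4), and the 95th percentile of signal was 1020 ± 477 (SD) against 1277 ± 627 (SD; permutation p = 0.27, adjusted 0.4). The arrays lay on 13 BeadChips, of which 6 held both high and low mice. The set of 26 arrays held 7 high and 10 low mice, the set of 11 arrays 5 high and 2 low mice.

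Over the whole array, 444 of 8540 probes (5.2%) differed between the high and the low mice at an adjusted p under 0.05 (limma, Benjamini-Hochberg adjustment over all 8540). Of these, 277 (3.24%) were higher and 167 (1.96%) were lower in high-*Lrrc24* mice. The differences were small, with a median of 0.44 on the log2 scale among the higher and 0.55 in size among the lower probes. Only 3 probes (0.0351%) had no overlap between the 12 high and the 12 low mice, those of *Card10*, *Gfus* and *Rnpep*. *Gfus* and *Card10* lie on chromosome 15 and *Rnpep*, an aminopeptidase gene with a mean of 9.49 ± 0.14 (SD, n = 12) in high and 9.12 ± 0.13 (SD, n = 12) in low mice, lies on chromosome 1. The middle mice, left out of the fit, had a median between those of high and low mice for 222 of the 277 higher and 136 of the 167 lower probes, against 3688 of all 8540. The called probes were picked for a distance between high and low mice, which leaves more room for a median between them. The middle mice were also placed by the same *Lrrc24* values. These counts are therefore a description and no independent evidence.

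The number of calls depended on how batches and normalization were treated. With the set of BeadChips as a fixed term 304 probes passed (278 shared with the 444), and with BeadChip as a random block 406 (386 shared). With each BeadChip as a fixed block 0 of 8540 passed, within the set of 26 arrays 0 and within the set of 11 arrays 1. These fits hold fewer mice or use only the BeadChips with both groups, and the cause of the falls was not tested. Without quantile normalization 0 passed (641 probes, or 7.51%, had an unadjusted p under 0.05 there, against 1897, or 22.2%, with it). Leaving out 1 mouse in turn gave between 145 calls (without mouse 102, a high mouse) and 590 calls (without mouse 31, a low mouse). Of the called probes, which were picked for their difference, 277 of 277 higher and 167 of 167 lower probes kept their sign without quantile normalization, against 5768 of all 8540. In the 6 BeadChips with both groups, 151 of 277 higher and 92 of 167 lower probes had the same sign in all 6, against 683 of 8540 probes overall. Omitting quantile normalization shifted the median difference of all probes from 0.05 to -0.18. The interaction of group and set of BeadChips passed for 0 of 8540 probes (limma, 55 unadjusted), but with 5 high and 2 low mice in the smaller set it does not show that the sets act alike.

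**Figure D2:**
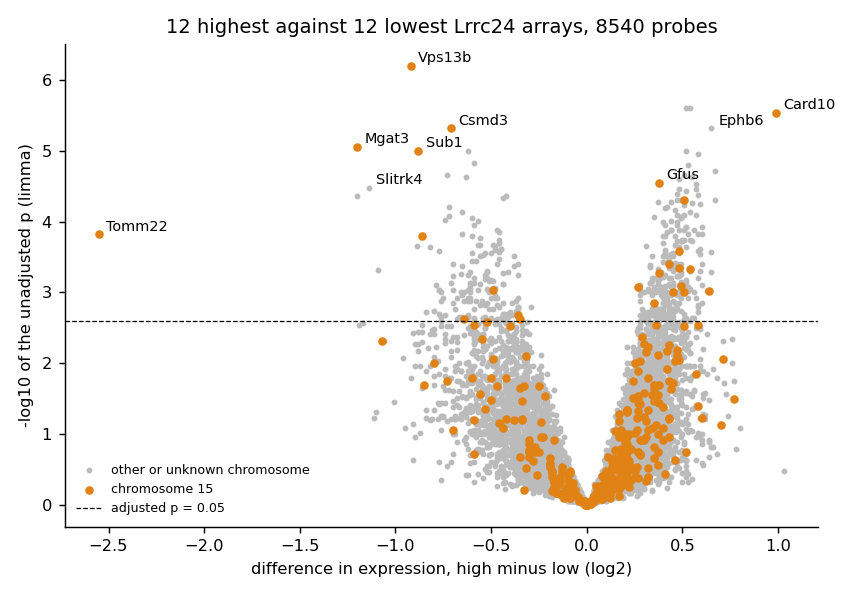
Difference in expression between high and low *Lrrc24* mice (log2, x axis) against the -log10 of the unadjusted p of limma (y axis) for 8540 probes, with chromosome 15 in orange and the dashed line at an adjusted p of 0.05. *Tomm22* and *Card10* lie at the ends of the x axis among called probes, and *Vps13b* has the smallest p.

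Chromosome 15 held 334 of the tested probes, and 24 of them (7.19%) were called, 14 higher and 10 lower in high-*Lrrc24* mice. On the other chromosomes together 380 of 7274 probes (5.22%) were called. The calls on chromosome 15 include *Tomm22* and *Mgat3*, whose probes hold a SNP between the parental strains. The study held its eQTL probes with a SNP to be likely artifacts and removed them. Apart from the eQTL probes of the study, the chromosome 15 probes were not checked here for SNPs. The part of SNPs in the share of the chromosome was not tested. The share on chromosome 15 was not the highest, since chromosome 17 had 8.64% (31 higher and 2 lower) and chromosome X 7.34% (4 higher and 12 lower). Among the 20 probes with the smallest p in the whole comparison, 6 were from chromosome 15, against 334 of all 8540 tested probes. *Mgat3*, whose probe holds a SNP, was among them, as were *Card10* and *Sub1*. These genes were also mapped as eQTL genes in the same mice. The count among the 20 fell to 2 with 18 against 18 mice and to 2 within the set of 26 arrays. It was 4 to 6 in the other alternatives to the main comparison that kept all mice of a group or left out several. With the unadjusted p, 27.8% of chromosome 15 probes and 22.1% of the others were under 0.05. Leaving out 1 mouse in turn gave between 11 calls on the chromosome (without mouse 102) and 32 calls (without mouse 104). With BeadChip as a fixed block 0 of 334 probes passed (13.5% at an unadjusted p under 0.05, against 10.8% on the other chromosomes), and without quantile normalization 0 of 334 (8.68% against 7.3%).

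In gene order along chromosome 15, the few calls of some stretches all had 1 direction, and those of other stretches were mixed. The tested probes were cut into 8 bins of 41 or 42 probes. The bins 1 and 2, from *Selenop* to *Asap1*, held 7 lower and 0 higher calls. The bins 3 and 4, from *Adcy8* to *Nol12* with *Lrrc24* in bin 4, held 6 higher and 0 lower calls. Bin 5, from *Triobp* to *Csdc2*, held 2 higher and 2 lower calls, and bin 6, from *Pmm1* to *Mapk8ip2*, 5 higher and 0 lower calls. The lower calls of bin 5, *Tomm22* and *Mgat3*, came from probes with a SNP between the parental strains. Bin 7 held 1 call in each direction and bin 8, from *Cox14* to *Mucl1*, 0 of 42 probes. The share of called probes was 7.32% in bin 1, 9.52% in bins 2 and 4, and 4.76% in bins 3 and 7. It was 9.76% in bin 5 and 11.9% in bin 6, against 5.2% of all probes. No difference between bins was tested. Of the 20 nearest probes on each side of *Lrrc24*, 5 of 40 (12.5%) were called, all higher.

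**Figure D3:**
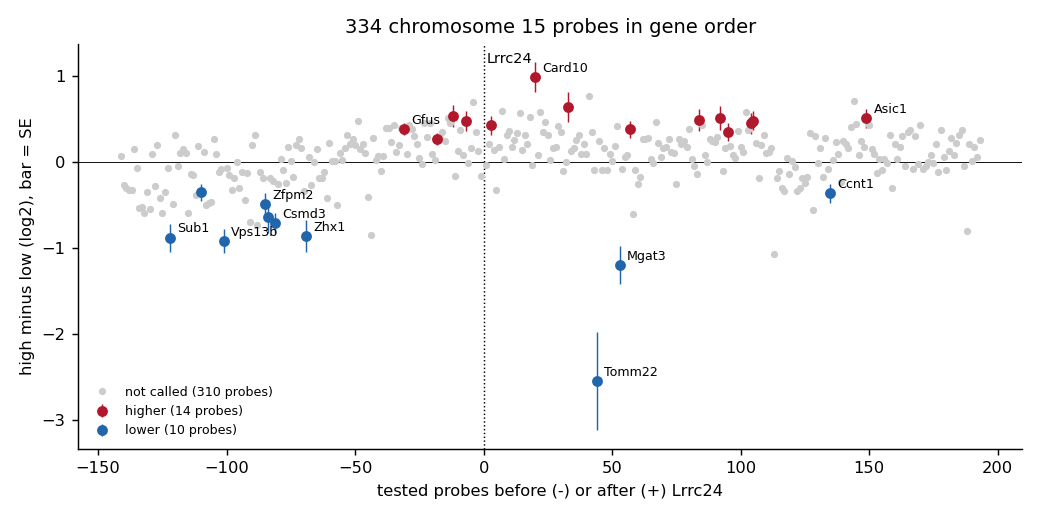
High minus low difference (log2, y axis; bars are SE) for the 334 tested chromosome 15 probes, placed by their number of tested probes before or after *Lrrc24* (x axis). The called probes far before *Lrrc24*, such as *Sub1*, *Vps13b* and *Csmd3*, are all lower (blue), and those around it, such as *Gfus* and *Card10*, are higher (red).

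Among the 6 nearest tested probes on each side of *Lrrc24*, 1 of 12 (8.33%) was called, against 7.19% on the chromosome and 5.2% of all probes. It was that of *Commd5*, a member of the COMMD family of copper metabolism and endosomal sorting proteins. *Commd5* ran from 8.10 to 9.03 in high mice (median 8.68) and from 7.98 to 8.56 in low mice (median 8.22), with a difference of 0.43 ± 0.11 (SE, limma adjusted p = 0.023). The ranges overlapped, with 8 low mice inside the range of the high mice. *Gpt*, which encodes alanine aminotransferase, had a difference of 0.35 ± 0.14 (adjusted p = 0.14), and *Rpl8*, a ribosomal protein gene, one of 0.14 ± 0.11 (adjusted p = 0.5). *Ppp1r16a*, a regulatory subunit of protein phosphatase 1, had 0.70 ± 0.38 (adjusted p = 0.28), and *Kifc2*, a neuronal kinesin, 0.16 ± 0.29 (adjusted p = 0.8). *Cyhr1* had 4 tested probes. The called one lay just outside the 12 nearest probes, with a difference of 0.48 ± 0.12 (adjusted p = 0.025), and the others had 0.37, 0.08 and -0.01. Of the remaining nearest probes, those of *Mfsd3* had 0.13 and -0.16 and that of *C030006K11Rik* -0.03. *Arhgap39* had 0.21, *1110038F14Rik* -0.32 and the nearer *Rbfox2* probe 0.18. The nearest probes thus did not all go in the same direction.

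*Card10* showed the largest difference among the called higher probes. It encodes a scaffold protein of the caspase recruitment domain family that links receptors to NF-kB activation, and the study mapped its expression to chromosome 15 with a probe that holds no SNP. In high mice *Card10* had a lowest value of 8.39, a median of 8.66 and a highest value of 9.41. In low mice it had 6.95, 7.79 and 8.35, so every high mouse lay above every low mouse. The difference was 0.99 ± 0.17 (SE, limma adjusted p = 0.0061), or 1.99-fold. It was 1.0 within the set of 26 arrays, 1.11 within the set of 11 arrays, 0.93 with BeadChip as a fixed block (adjusted p = 0.28) and 0.73 without quantile normalization (adjusted p = 0.66). The 13 middle mice ran from 8.21 to 9.17 with a median of 8.67, which is the level of the high mice rather than a point between the ends. Of the 12 mice with the highest *Card10*, 6 were high-*Lrrc24* mice, 6 middle mice and 0 low mice. Of the 12 with the lowest, 10 were low, 2 middle and 0 high mice.

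*Sub1* was the first called gene of the chromosome in gene order and went the other way. It encodes a coactivator of RNA polymerase II transcription that binds single-stranded DNA, and it is also among the chromosome 15 eQTL genes of the study without a SNP in the probe. Its values were 8.13, 8.79 and 9.59 (lowest, median, highest) in high mice and 9.19, 9.71 and 10.06 in low mice. The ranges overlapped, with 5 low mice inside the range of the high mice. The difference was -0.88 ± 0.16 (SE, limma adjusted p = 0.0087), with -0.68 within the set of 26 arrays and -1.16 within the set of 11 arrays. The middle mice had a median of 8.99.

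The promoters of *Card10* and *Sub1* are shown because these eQTL genes, on opposite sides of *Lrrc24* in gene order, differed in opposite directions. Both are RefSeq sequences of GRCm38.p6 on the minus strand, written 5′ to 3′ from 250 bases before to 50 bases after the start of the gene, *Card10* at chr15:78802993-78803292 and *Sub1* at chr15:11995958-11996257. Capitals mark the GC box, the letters GGGCGG or, on the other strand, CCGCCC.
Card10: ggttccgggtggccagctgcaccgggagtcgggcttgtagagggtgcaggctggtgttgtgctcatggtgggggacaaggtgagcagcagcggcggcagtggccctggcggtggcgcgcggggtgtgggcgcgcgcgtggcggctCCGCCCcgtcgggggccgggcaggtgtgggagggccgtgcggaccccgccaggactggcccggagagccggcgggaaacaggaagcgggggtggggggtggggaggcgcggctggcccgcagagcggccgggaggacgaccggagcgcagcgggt
Sub1: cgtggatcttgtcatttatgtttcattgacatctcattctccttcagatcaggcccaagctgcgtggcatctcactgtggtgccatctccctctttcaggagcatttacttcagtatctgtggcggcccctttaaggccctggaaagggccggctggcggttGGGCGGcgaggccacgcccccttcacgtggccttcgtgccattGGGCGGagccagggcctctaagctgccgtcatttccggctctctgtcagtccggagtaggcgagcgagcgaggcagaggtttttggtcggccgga
The *Card10* window had 77.0% G or C and 34 CpG dinucleotides, with 1 GC box on the other strand. The *Sub1* window had 59.3% G or C and 19 CpG dinucleotides, with 2 GC boxes on the strand shown. Of the 6764 tested genes, 5545 had a promoter sequence available. A GC box was found in 65.9% of these promoters and in 35.9% of all 27025 promoters available, so its presence does not set these genes apart.

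Before *Lrrc24*, in bins 1 and 2, the other lower genes were *Vps13b*, *Csmd3*, *Zhx1*, *Zfpm2*, *Oxr1* and *Sdc2*. *Vps13b*, a lipid transfer protein of the Golgi whose loss causes Cohen syndrome in people, had the smallest p of all 8540 probes. In high mice it had 7.59, 8.27 and 8.84 (lowest, median, highest), and in low mice 8.62, 9.24 and 9.39. Only 2 low mice lay inside the range of the high mice. The difference was -0.92 ± 0.14 (SE, limma adjusted p = 0.0054) and had the same sign in all 6 BeadChips with both groups. With BeadChip as a fixed block it was -0.93 (adjusted p = 0.065). The middle mice had a median of 8.31, close to the high mice, and reached 9.33.

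*Csmd3*, a large transmembrane protein with CUB and sushi domains expressed in brain, had 7.02, 7.33 and 7.85 in high and 7.63, 8.16 and 8.55 in low mice. The difference was -0.71 ± 0.12 (SE, limma adjusted p = 0.0068), again with the same sign in all 6 BeadChips. *Zhx1*, a transcriptional repressor with zinc fingers and homeoboxes, was near the limit of detection, with 21 of 37 arrays above it. Its medians were 5.07 in high and 6.07 in low mice, and 11 high mice lay inside the range of the low mice (difference -0.86 ± 0.19, adjusted p = 0.017). Its other probe, detected on all 37 arrays, had a difference of -0.34 and was not called (adjusted p = 0.25). *Zfpm2*, a cofactor of GATA factors, had medians of 8.23 and 8.70 (difference -0.49 ± 0.13, adjusted p = 0.032). *Oxr1*, a gene of protection against oxidative stress, differed by -0.64 (adjusted p = 0.048) and *Sdc2*, the heparan sulfate proteoglycan syndecan 2, by -0.35 (adjusted p = 0.048). The 2 last calls lay just under the threshold.

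Between these genes and *Lrrc24*, the higher calls were *Gfus*, *Maf1*, *Adck5* and the *Cyhr1* probe. *Gfus*, which encodes the enzyme that makes GDP-fucose, had 9.55, 9.67 and 9.84 (lowest, median, highest) in high mice and 9.06, 9.32 and 9.54 in low mice. The groups did not overlap, and the difference was 0.38 ± 0.07 (SE, limma adjusted p = 0.012). Without quantile normalization it was 0.15 (adjusted p = 0.97). *Maf1*, the repressor of RNA polymerase III, is among the chromosome 15 eQTL genes of the study and had medians of 11.83 in high and 11.57 in low mice. Its difference of 0.27 ± 0.07 (adjusted p = 0.031) was among the smallest of the calls, with 1 low mouse inside the range of the high mice. *Adck5*, a predicted mitochondrial kinase, is another eQTL gene and had medians of 6.52 and 6.10 (difference 0.54 ± 0.13, adjusted p = 0.025).

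*Tomm22* carried the largest difference of the whole comparison and *Mgat3* one of the next in size, and both probes hold a SNP between the parental strains. A SNP there can change how the RNA binds to the probe, and its part in these values was not tested. *Tomm22* encodes the central receptor of the mitochondrial import channel. Its values had a gap between 6.64 and 9.01. Of the high mice, 6 of 12 lay below the gap, of the middle mice 5 of 13, and of the low mice 0 of 12. The high mice had a median of 7.73 and the low mice one of 10.08, with a difference of -2.55 ± 0.57 (SE, limma adjusted p = 0.017). The median of the high mice falls into the gap and is the level of no mouse. *Mgat3*, the enzyme that adds the bisecting N-acetylglucosamine to N-glycans, had 7.16, 8.04 and 8.89 in high mice and 8.42, 9.25 and 9.78 in low mice (difference -1.20 ± 0.22, adjusted p = 0.0087). Its middle mice ran from 6.86 to 9.48, with a median of 8.38.

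Past *Mgat3* the calls were mostly higher. *Asic1*, an acid-sensing sodium channel of neurons, had 8.21, 8.55 and 8.87 (lowest, median, highest) in high and 7.71, 8.04 and 8.55 in low mice, with 2 low mice inside the range of the high mice. The difference was 0.51 ± 0.11 (SE, limma adjusted p = 0.012). *Ncaph2*, a condensin II subunit, had a difference of 0.48 ± 0.11 (adjusted p = 0.02) for 1 probe and of 0.22 (adjusted p = 0.33, not called) for the other. *Nup50*, a nuclear pore protein, differed by 0.51 (adjusted p = 0.032). *Ttll12*, *Tbc1d22a* and *Dennd6b* differed by 0.49, 0.35 and 0.45. *Sgsm3* had 0.38 (adjusted p = 0.026). *Ccnt1*, which encodes cyclin T1 of the elongation factor P-TEFb, held the only lower call past *Mgat3*, with -0.36 (adjusted p = 0.047) for 1 probe and 0.03 (adjusted p = 0.94) for the other.

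**Figure D4:**
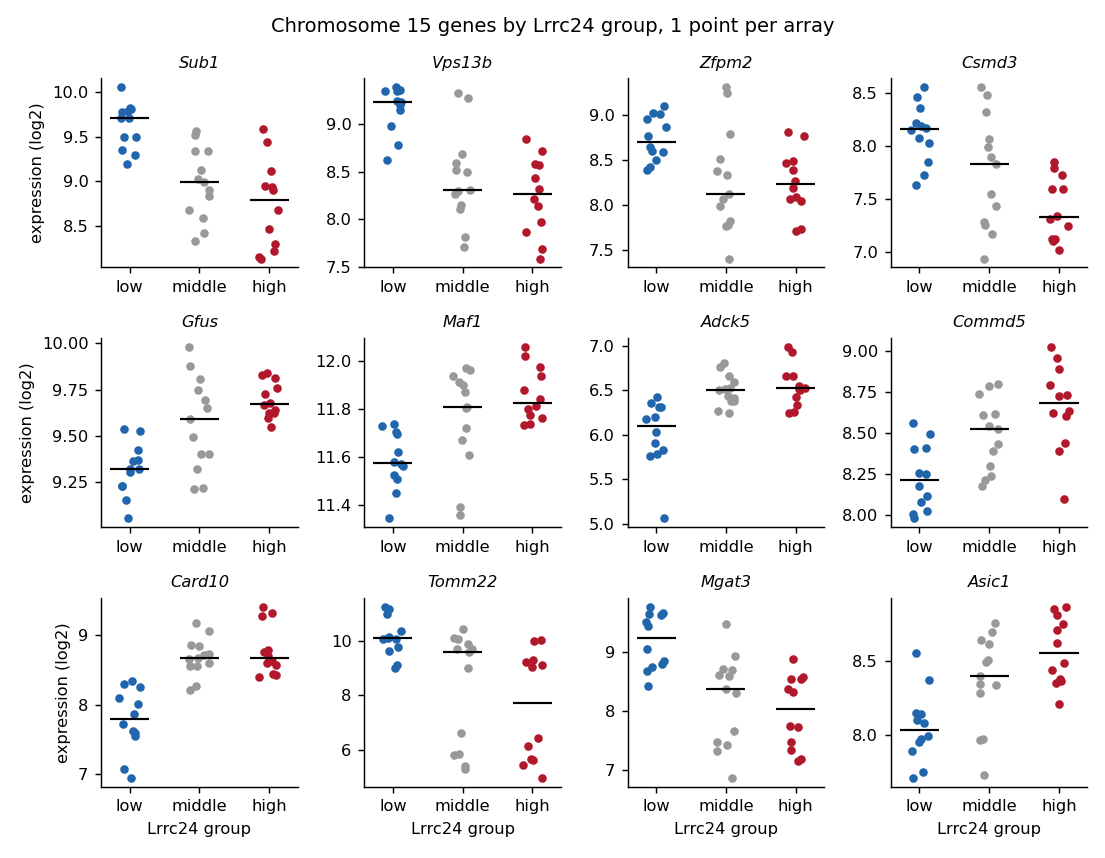
Expression (log2, y axis) of 12 chromosome 15 genes in the low (blue), middle (grey) and high (red) *Lrrc24* mice, 1 point per array, bar at the median, panels in gene order. *Card10* and *Gfus* show no overlap between low and high mice, and *Tomm22* has a gap between 6.64 and 9.01 with 0 of 12 low mice below it.

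The chromosome 15 eQTL genes of the study were followed as a list. This list was chosen by the study on the same mice, so its counts are no independent evidence. Of the 12 other eQTL genes whose probe holds no SNP, 4 were higher (*Card10*, *Adck5*, *Maf1* and *1700088E04Rik*) and 2 lower (*Sub1* and *Zfpm2*). *1700088E04Rik* had medians of 8.56 in high and 7.88 in low mice (difference 0.64 ± 0.17, limma adjusted p = 0.032). When each of the 24 mice was left out in turn, the calls of *1700088E04Rik*, *Zfpm2*, *Maf1* and *Adck5* were lost in 8, 8, 6 and 1 of the fits. Those of *Card10* and *Sub1* were lost in 0. The other 6 did not pass in the main comparison. *Ly6e*, of the same family of GPI-anchored surface proteins as *Ly6a*, had a difference of -0.40 ± 0.12 (adjusted p = 0.053), with medians of 11.25 and 11.75. *Ly6a* itself, also called Sca-1, ran from 8.25 to 11.15 in high and from 9.05 to 11.85 in low mice, with a difference of -0.85 ± 0.34 (adjusted p = 0.14). The 2 ranges of *Ly6a* overlapped over most of their width. *Grasp* had 0.30 (adjusted p = 0.07), *Tef*, a circadian transcription factor, 0.28 (adjusted p = 0.096), *Rbfox2*, a splicing regulator, 0.60 (adjusted p = 0.25) and *Phf21b* 0.29 (adjusted p = 0.37). Another tested probe of *Grasp* had -0.04 (limma adjusted p = 0.93), and another of *Rbfox2* had 0.18 (limma adjusted p = 0.67). With the number of detected probes as a covariate, *Ly6a* (-1.08, limma adjusted p = 0.0076), *Ly6e* (0.014) and *Tef* (0.029) passed, as did 1158 of all 8540 probes. *Grasp*, *Rbfox2* and *Phf21b* did not pass there. Without quantile normalization and with BeadChip as a fixed block, none of these genes passed. The remaining eQTL probes with a SNP, those of *Atf4*, *Zfp706*, *2210021J22Rik* and *Dbx2*, reached detection on 9 to 11 arrays and were not tested.

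Away from chromosome 15, the called higher probes with the largest differences had varied roles. *Ephb6*, an ephrin receptor without kinase activity, had 7.92, 8.52 and 8.84 (lowest, median, highest) in high and 7.42, 7.77 and 8.22 in low mice. Its difference was 0.65 ± 0.11 (SE, limma adjusted p = 0.0068), with 3 low mice inside the range of the high mice. *Kcnk12*, a potassium channel subunit, had a difference of 0.65 ± 0.15 (adjusted p = 0.02), and *Cckbr*, the cholecystokinin receptor of the brain, of 0.63 ± 0.17 (adjusted p = 0.032). The remaining genes were *Babam1* of the BRCA1-A complex (0.67 ± 0.13, adjusted p = 0.011), the RNA helicase gene *Dhx34* (0.67 ± 0.14), the Groucho corepressor gene *Tle2* (0.65 ± 0.16), the oxysterol receptor gene *Nr1h3* (0.60 ± 0.13), *Rrp9* of the U3 small nucleolar particle (0.60 ± 0.15), the endocytic recycling gene *Ehd1* (0.60 ± 0.16) and the Golgi zinc finger gene *Zfpl1* (0.60 ± 0.17). None of these genes was free of overlap. *Tle2* and *Nr1h3* were detected on 29 and 30 arrays. When each of the 24 mice was left out in turn, the calls of *Zfpl1*, *Ehd1* and *Cckbr* were lost in 11, 8 and 7 of the fits.

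The largest lower differences among called probes away from chromosome 15 were those of *Ccdc88a* and *Slitrk4*. *Slitrk4*, a leucine-rich repeat protein of synapses encoded on chromosome X, had 5.92, 6.98 and 7.84 in high and 7.27, 7.82 and 8.92 in low mice, with 6 low mice inside the range of the high mice. The difference was -1.14 ± 0.23 (SE, limma adjusted p = 0.012). *Ccdc88a*, the actin-binding protein girdin, had medians of 5.54 and 6.66 (difference -1.20 ± 0.24, adjusted p = 0.012) and was detected on 25 arrays. *Rbm3*, a cold-inducible RNA-binding protein, had medians of 7.32 and 8.25 (difference -0.89 ± 0.21, adjusted p = 0.019). *Sh3bgrl* had a difference of -1.09 ± 0.27, *Fundc2* of -0.84 ± 0.24, and the zinc finger genes *Zfp638* and *Zfp292* of -0.82 ± 0.19 and -0.80 ± 0.23. *Sh3bgrl* and *Fundc2* were detected on 21 and 20 arrays, close to the minimum of 19, and their low mice were at median levels of 6.64 and 6.30. When each of the 24 mice was left out in turn, the calls of *Fundc2* and *Zfp292* were lost in 15 and 14 of the fits.

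Over all 37 mice, the probes closest to *Lrrc24* by Pearson's *r* were *Tubg1* (0.81), *Fcho1* (0.80), *Gfus* (0.79), *Vrk3* (0.79) and *Mier2* (0.78). Of these genes *Gfus* lies on chromosome 15. *Tubg1*, gamma-tubulin, had 8.55, 8.97 and 9.55 (lowest, median, highest) in high and 7.95, 8.42 and 8.74 in low mice (difference 0.58 ± 0.11, limma adjusted p = 0.0087). The most opposite probes were *Vps13b* (-0.75), *Sub1* (-0.74), *Csmd3* (-0.73), *Ccz1* (-0.70) and *Atp1b3* (-0.69), and the first 3 of these lie on chromosome 15. These values of *r* describe the probes picked for them out of 8540, each pair shares its arrays, and no p is given.

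Leucine-rich repeat proteins of neuronal membranes, the family of *Lrrc24*, had 22 tested probes. *Lrfn2* was higher (difference 0.37 ± 0.10, limma adjusted p = 0.028), with medians of 9.27 in high and 8.89 in low mice, and *Slitrk4* was lower. *Lrfn2* encodes a synaptic adhesion molecule that binds PSD-95. The 2 of 22 calls stand against 5.2% called over all probes, and 4 of 22 had an unadjusted p under 0.05, against 22.2%. The other 20 did not pass, among them *Lrrn3* (-0.61 ± 0.19, adjusted p = 0.053) and *Elfn1* (0.61 ± 0.20, adjusted p = 0.075). The median difference of the family was 0.14 against 0.05 for all probes, and -0.09 against -0.18 without quantile normalization. Of the guidance genes of the Slit, Robo and netrin pathways, whose secreted ligands and receptors steer growing axons, 0 of 7 passed in limma, and 5 had an unadjusted p under 0.05, against 5.2% and 22.2% over all probes. *Slit1* had a difference of 0.42 ± 0.15 (adjusted p = 0.1) and *Slit2* of -0.69 ± 0.26 (adjusted p = 0.11), and the receptor genes *Robo1* and *Unc5c* of -0.54 ± 0.18 (adjusted p = 0.073) and -0.41 ± 0.13 (adjusted p = 0.067).

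Synaptic, metabolic, ribosomal and response genes were read against the same shares over all probes, 5.2% called and 22.2% at an unadjusted p under 0.05. *Stx1a*, the plasma membrane SNARE of vesicle release, was the only call among 15 probes of synaptic vesicle release (difference 0.39 ± 0.10, limma adjusted p = 0.032). *Uqcrc1*, of complex III, was the only one among 44 probes of oxidative phosphorylation (0.38 ± 0.10, adjusted p = 0.028), and 1 probe of *Rpl23* the only one among 49 probes of cytosolic ribosomal proteins (-0.43 ± 0.13, adjusted p = 0.046). In these lists 2 of 15, 6 of 44 and 1 of 49 probes had an unadjusted p under 0.05 in limma. The other and brighter *Rpl23* probe had -0.08 (adjusted p = 0.81). When each of the 24 mice was left out in turn, the calls of *Stx1a*, *Uqcrc1* and *Rpl23* were lost in 10, 2 and 11 of the fits. Glutamate receptor subunits (0 of 10), GABA receptor subunits (0 of 3), immediate early genes (0 of 6), interferon response genes (0 of 4) and glucocorticoid target genes (0 of 8) had no call in limma, with 1, 0, 2, 0 and 3 probes at an unadjusted p under 0.05. *Rbm3* was the only call among 5 heat shock and cold-inducible genes and the only 1 of them with an unadjusted p under 0.05.

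Cell type markers were examined because the hippocampus punches could hold different amounts of neighboring tissue. None of the 81 tested probes of these 11 lists was called in limma (5.2% of all probes were), and 15 of them (18.5%) had an unadjusted p under 0.05, against 22.2% of all probes. Thalamus markers had 0 of 10 calls (3 unadjusted), with a median difference of -0.24, and oligodendrocyte and myelin markers 0 of 12 (3 unadjusted), with a median of -0.22. The summed signal of the myelin markers ran from 19640 to 40250 in high and from 17790 to 45840 in low mice. Choroid plexus markers had 0 of 5 calls (1 unadjusted) and the lowest median of the lists, -0.73. *Kl* had -1.17 ± 0.35 (adjusted p = 0.051) and *Clic6* -0.73 ± 0.66. *Ttr*, the main choroid plexus transcript, had -0.76 ± 0.99 and ran from 4.86 to 13.93 in high and from 5.82 to 14.31 in low mice. Within the set of 11 arrays the sign changed for *Ttr* (1.9), *Clic6* (0.73) and *Igf2* (0.25) and stayed for *Kl* (-0.28). Within the set of 26 arrays these genes were all lower in high mice. Markers of astrocytes, microglia, endothelial cells, oligodendrocyte precursors, erythroid cells, interneurons, dentate granule cells and CA1 and CA3 pyramidal cells had medians between -0.08 and 0.41. The part of cell composition in the calls was not tested, and in bulk tissue fewer cells of a type and less RNA per cell cannot be told apart.

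**Figure D5:**
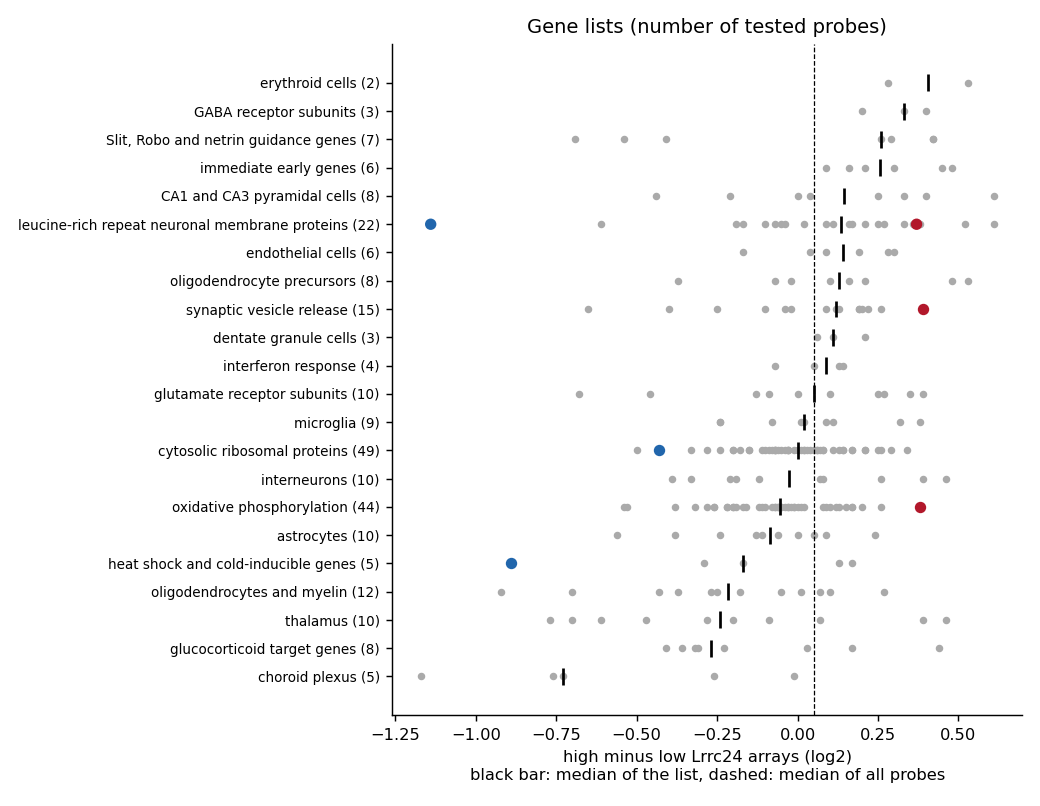
High minus low difference (log2, x axis) of every tested probe of 22 gene lists (y axis, number of tested probes in parentheses), with called probes in red (higher) and blue (lower), a black bar at the median of the list and a dashed line at 0.05, the median of all 8540 probes. Most lists hold no call, and choroid plexus has the lowest median, -0.73.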

How the data were processed

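Signal intensity values, extracted and background corrected by the authors in BeadStudio, were deposited without normalization between arrays, with a detection score per probe. The authors also deposited log2 values (lumi, variance stabilization, then robust splines between arrays), used here as an alternative. Of all signals, 30.8% were below 0.

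Background was estimated per array from detection p-values (1 minus the score; function nec, limma 3.58.1, R 4.3.3) with an offset of 16, and the arrays were then quantile normalized and log2 transformed. Probes with a score above 0.99 on at least 19 arrays were kept, and the *Lrrc24* probe was left out of the tests. High and low mice were compared with lmFit and eBayes, Benjamini-Hochberg adjustment and a threshold of 0.05. Precision is limited by the array number and by signal over background.

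Genes came from the platform annotation (20984 of 24620 probes had 1 gene), after matching all 24613 rows of the normalized table to the signal table by ranks across arrays. *Ly6a* was named through the study's own table. Gene order came from RefSeq. Nothing says whether replicate mice share litters, so p-values measure the spread between these mice.

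Named were the 12 largest calls in each direction, the eQTL genes of the study, the first 12 chromosome 15 calls by p and the other calls on that chromosome, the 6 tested probes on each side of *Lrrc24*, up to 4 members of each list and the 5 probes most and least like *Lrrc24*. *Rnpep*, *Oxr1*, *Sdc2*, *Nup50*, *Ttll12*, *Tbc1d22a*, *Dennd6b*, *Sgsm3* and *Ccnt1* were added after their values were seen. Mice and lists were chosen with earlier results of these data known. On simulated arrays of the same size, changes of 2 SD were recovered in 82% and changes of 1 SD in 6% of probes, with 7 false calls. The simulation changed 200 of 8540 probes, drew each probe independently and had no BeadChips. Its rates therefore need not hold for the comparison of the mice. Alternatives changed the normalization, background step, detection filter, group size, ranking, covariate, BeadChip terms and single arrays.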

Additional observations from a re-analysis of the deposited data

How the results depend on the processing

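The count of 444 calls (24 on chromosome 15) rested on the normalization, the size of the groups and the treatment of BeadChips. It fell to 0 (0 on chromosome 15) without quantile normalization, to 0 (0) within the set of 26 arrays, to 1 (0) within the set of 11 arrays and to 0 (0) with BeadChip as a fixed block, and to 84 (7) with the 9 highest against the 9 lowest mice. The fits within sets and with 9 mice per side hold fewer mice, and the fixed block uses the 6 BeadChips with both groups. The causes of these falls and of the changes below were not tested. The count rose to 1918 (91) with 18 against 18 mice, 1351 (64) with a slope on *Lrrc24* over 37 mice, 1046 (61) with mice ranked by the authors' values, 1158 (65) with the number of detected probes as a covariate, and 1050 (57) without the 4 arrays with fewer than 7000 detected probes. The authors' values gave 597 calls, 402 of them shared, and 37 on chromosome 15. The fixed block and the removal of the 4 arrays were chosen after seeing the data. Leaving out each mouse gave 145 to 590 calls and 11 to 32 on chromosome 15. The other background step, detection filters, random block and set term gave between 304 and 586 calls. No direction of the 30 called probes followed through the alternatives was reversed. With BeadChip as a fixed block, within either set and without quantile normalization, 0 of these 30 stayed under the threshold. No paired analysis was possible because the mice share no replicate numbers between high and low, beside the BeadChip blocks given above.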

Other observations

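Over all chromosomes 277 of 444 calls were higher in high-*Lrrc24* mice. The chromosomes that follow were picked for their counts, and no difference between chromosomes was tested. On chromosome 17, 31 of 33 calls were higher, on chromosome 7 31 of 35, and on chromosome 19 14 of 16. On chromosome X 12 of 16 calls were lower, and on chromosome 1 10 of 14. The median difference of all tested probes was 0.14 on chromosomes 7 and 17, 0.13 on chromosome 19 and -0.12 on chromosome X, against 0.05 over the whole array.

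The medians of the middle mice differed in where they lay against those of the ends. For *Card10*, *Vps13b*, *Sub1* and *Adck5* their medians (8.67, 8.31, 8.99 and 6.5) were closer to those of the high mice (8.66, 8.27, 8.79 and 6.52) than to those of the low mice (7.79, 9.24, 9.71 and 6.10). For *Tomm22* the median of the middle mice (9.58) was closer to that of the low mice (10.08) than to that of the high mice (7.73). These orders were seen in the values and were not tested.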
